A study of Homo sapiens with 6 samples.

Results

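The regions described here were bound, by the authors' peak calls, in quiescent cells and in senescent cells with RB knockdown, but had no called peak in growing cells. The protein was E2F7, and the DNA that it bound was recovered by immunoprecipitation of chromatin and sequenced (ChIP-seq). The cells were IMR90, a human fetal lung fibroblast line. Peaks of the 3 lists on chromosomes 1 to 22 and X were merged wherever they overlapped by at least 1 bp. A merged region was kept when it held a quiescent and an RB knockdown peak and no growing peak. The rule kept 4374 of 54554 merged regions (8.02%), which together covered 6.65 Mb. They held 4389 of 10225 quiescent peaks (42.9%, 95% exact interval 42.0% to 43.9%) and 4666 of 43643 RB knockdown peaks (10.7%, 10.4% to 11.0%). The presence and absence of calls chose the regions, so these counts and the peak strengths below are descriptions and not tests.

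E2F7 is an atypical E2F transcription factor. It binds DNA through paired DNA-binding domains of its own, without the DP partner that classical E2Fs need, and represses E2F target genes such as those for DNA replication. RB, the retinoblastoma protein, restrains the activating E2Fs and is required for stable silencing of such genes in senescence. The gene for E2F7 is itself an E2F target with high expression in S phase, while quiescence is a reversible exit from the cycle and Ras-induced senescence a lasting one.

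The labels give 1 E2F7 ChIP library for each of 3 states, growing IMR90 cells, quiescent IMR90 cells, and IMR90 cells made senescent by Ras that also carried an RB hairpin. Treatment is entered as none for the first pair of states, although the protocol text common to all samples describes an ER-Ras vector with hairpins and collection 4 days after tamoxifen. How quiescence was induced, and how many RB hairpins were used, is not given in the sources used here. All these ChIPs used 10 µg of the same E2F7 antibody, and all peak lists were called against 1 common control library. The E2F7 knockdown, IgG and input samples, also labelled in the series, were not analysed here as libraries of their own. The peak lists hold no value that checks the cell line or the knockdown of RB. After the caller's duplicate limit 22628990 tags were left in the growing library, 25212239 in the quiescent and 23379790 in the RB knockdown library. The fragment length in the caller's headers is 200 bp in growing and quiescent cells but 125 bp with RB knockdown, so widths, and with them tags per peak, are not on 1 scale between lists. With 1 library per state there was no replicate error, and every value describes these libraries.

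The rule turned on small distances at its edge. The smallest overlap among the kept regions was 9 bp, at chr9:34549265-34550600 (hg18, as are all positions here), where both the quiescent and the RB knockdown peak had 26 tags. The next were 10 bp at chr18:42750317-42752412 and 18 bp at chr15:78876163-78877375. Just outside, the quiescent peak at chr18:75228845-75229833 (28 tags, 7.09-fold enrichment) missed an RB knockdown peak of 14 tags by 10 bp. At chr3:86946707-86947688 the gap was 16 bp and at chr6:7186950-7188416 it was 27 bp. In all 6 of these cases the quiescent peak was a modest one, with 24 to 44 tags.

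The absence of a growing peak was as close a matter in a few regions. The kept region chr9:93578361-93579911 lay 6 bp from a growing peak of 38 tags and 7.82-fold enrichment. The gap was 13 bp at chr2:27092070-27092913, where the growing peak had 33 tags. It was 20 bp at chr16:2029079-2030277, where the quiescent peak had 120 tags and 30.7-fold enrichment, that of RB knockdown 37 tags and 14.0-fold, and the neighbouring growing peak 18 tags and 5.43-fold. The quiescent peak of that last region was much taller than the separate growing peak beside it, although they nearly touched. Just outside the rule, chr2:17835346-17837100 was lost to a growing peak of 16 tags that overlapped the other peaks by 8 bp, chr2:86116219-86119627 to an overlap of 27 bp, and chr17:897244-898620 to one of 130 bp. The 3 growing peaks involved had false discovery rates (FDRs) of 69.4% to 76.45%, and the median over the growing list was 72.6%. Absence of a growing peak therefore means that no growing peak passed the caller's p cutoff of 1e-05, not that E2F7 was absent in growing cells.

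Peak strength in the regions was read from the tallest peak of each list in a region, that is the one with the highest fold enrichment over the caller's local background. The tallest quiescent peak had a median of 67 tags (quartiles 46 and 99) and 6.26-fold enrichment (quartiles 5.15 and 7.79). The tallest RB knockdown peak had a median of 55 tags (quartiles 35 and 91) and 8.20-fold enrichment (quartiles 6.58 and 10.6). In fold enrichment the quiescent peaks of these regions sat at the level of their list, whose median was 6.33, and the RB knockdown peaks sat above theirs, whose median was 7.13. Quiescent peaks found in no other list had nearly the same median, 6.29-fold, and RB knockdown peaks found in no other list had 6.98-fold. In the 1191 regions of all 3 lists the medians were higher, 7.31-fold in the quiescent and 10.6-fold in the RB knockdown list.

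**Figure D1:**
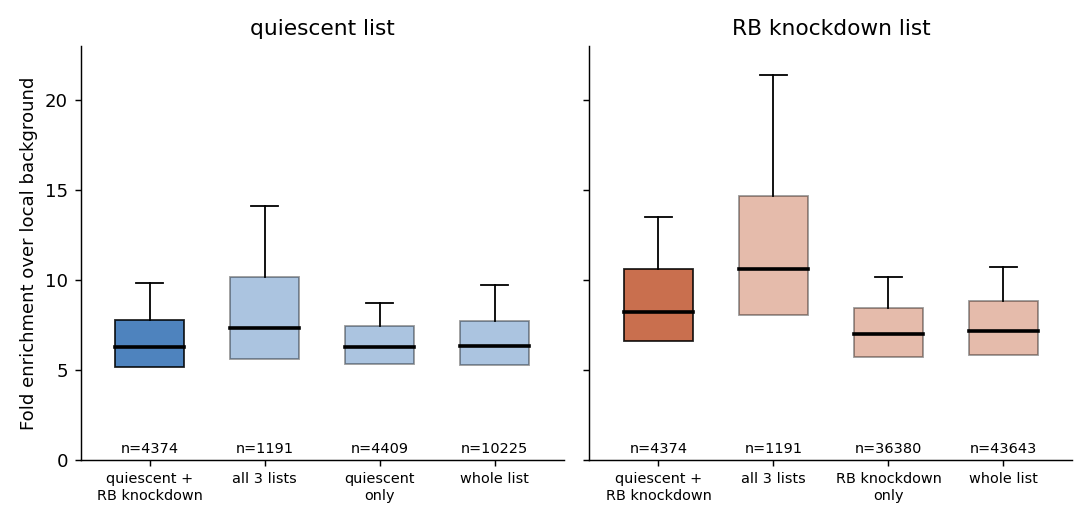
Fold enrichment (linear, over the caller's local background) of the tallest peak per region by class of region, left in the quiescent and right in the RB knockdown list; the 4th box of each panel is the whole list. Boxes run from the lower to the upper quartile, black lines are medians and whiskers end at the 90th percentile. In the regions shared by quiescent and RB knockdown only, the median was 6.26 in the quiescent and 8.20 in the RB knockdown list, against 6.33 and 7.13 in the whole lists.

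Tag density, which is not divided by local background, was read beside fold enrichment. The tallest quiescent peaks of the shared regions held a median of 51.1 tags per kb of peak, against 35.9 for quiescent-only regions and 52.6 for regions of all 3 lists. The tallest RB knockdown peaks held 67.3 tags per kb, against 54.9 for RB-knockdown-only regions and 72.4 for regions of all 3 lists. In the RB knockdown list both measures gave the same order, with the shared regions between the RB-knockdown-only regions and those of all 3 lists. In the quiescent list the shared regions stood above quiescent-only regions in density but were nearly level with them in fold enrichment. Classes were defined by the same calls, so these orders carry no test.

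The caller's confidence in the regions was unequal between the lists. The tallest RB knockdown peak had an FDR no higher than 5% in 4347 regions (99.4%, 95% exact interval 99.1% to 99.6%), where 98.0% of that whole list met it. The tallest quiescent peak met it in 891 regions (20.4%, 19.2% to 21.6%), where 17.8% of the quiescent list did. Both peaks met it in 887 regions (20.3%). A -10*log10 p of at least 100 was reached by the RB knockdown peak in 2621 regions (59.9%, 58.5% to 61.4%) against 28.6% of its list, and by the quiescent peak in 1449 regions (33.1%, 31.7% to 34.5%) against 27.3% of its list. On the quiescent side both shares stood somewhat above those of the list. For RB knockdown the FDR shares were close, but p was low far more often in the regions than in the list. In regions of all 3 lists a -10*log10 p of at least 100 was more frequent still, 81.8% for RB knockdown and 63.6% for quiescent peaks. The median quiescent FDR was 20.8% in the shared regions, 35.9% in quiescent-only regions and 4.45% in regions of all 3 lists. Since the regions were kept by these same calls, nothing further is read from these gaps.

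Combined, both peaks reached a -10*log10 p of 100 in 1028 regions (23.5%), only the RB knockdown peak did in 1593 (36.4%), only the quiescent peak in 421 (9.63%), and neither in 1332 (30.5%). In regions of all 3 lists, both peaks did in 56.5% and neither in 11.2%. The shared regions that passed in both had median fold enrichments of 8.25 (quiescent) and 10.6 (RB knockdown) and a median width of 1448.5 bp. Those that passed in neither had 5.73 and 6.77 and a width of 1128 bp. In 982 regions (22.5%) the quiescent value lay between 50, which is the caller's limit, and 60, and in 481 regions (11.0%) the RB knockdown value did. A sizeable minority of the shared regions thus depended on a peak near the limit of its list. In the whole lists, 3120 of 10225 quiescent and 12816 of 43643 RB knockdown peaks lay in that range. Those are larger shares than in the shared regions.

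The share of a list that fell into the shared regions changed along its own ranking. Of quiescent peaks with a -10*log10 p of 50 to 60, 31.5% lay in shared regions, 3.91% in regions of all 3 lists and 62.9% in no other list. Between 120 and 200 these shares were 55.3%, 22.6% and 20.7%. From 200 upward they were 40.8%, 50.3% and 7.79%. The shared regions were therefore most frequent among quiescent peaks of intermediate strength, and among the most significant quiescent peaks the regions of all 3 lists were the larger class. In the RB knockdown list the share in the shared regions was 4.26% at 50 to 60, 21.1% at 120 to 200 and 31.3% from 200 upward, where 42.7% of peaks were still in no other list.

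**Figure D2:**
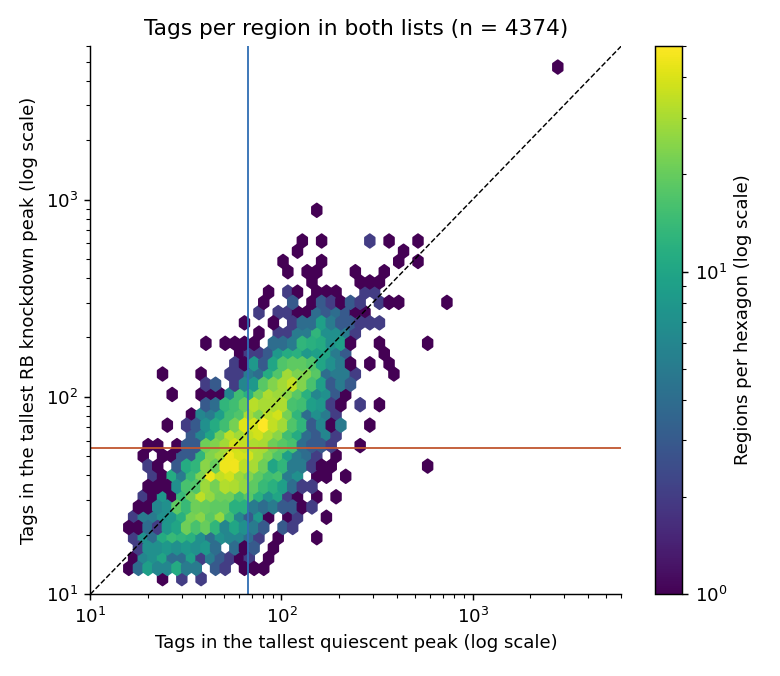
Tags in the tallest quiescent peak (x) and the tallest RB knockdown peak (y) of the 4374 shared regions, both on log axes; colour gives the number of regions per hexagon, the dashed line equal tags, and the solid lines the medians of 67 and 55 tags. The cloud follows the dashed line, and the isolated point at the upper right is the region with 2789 and 4689 tags.

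Across the 4374 regions, tags in the tallest peaks of both lists varied together (Spearman rho 0.74), as did tags per kb (0.72) and, less closely, peak width (0.55), fold enrichment (0.38) and -10*log10 p (0.24). These correlations compare the same sites against the same control library, and carry no p. Mappability and base composition were not measured, and no cause of the correlations, region length included, was tested. Summed over all its peaks, the quiescent library had more tags than the RB knockdown library in 2673 regions (61.1%). These counts were not scaled to depth, which was 25212239 filtered tags in the quiescent and 23379790 in the RB knockdown library. Median tags per kb of the tallest peak had the opposite order, 51.1 in the quiescent against 67.3 in the RB knockdown list. The quiescent peaks were also wider, with a median of 1238.5 bp against 782.5 bp. Their whole lists had medians of 1091 and 650 bp, so the difference in width was not confined to the shared regions. The part of peak width in the tag counts was not tested.

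The regions were mostly compact and simple. Their merged width had a median of 1306 bp, with quartiles of 1035 and 1733.75 bp and a range of 430 to 22733 bp. Exactly 1 quiescent and 1 RB knockdown peak made up 4104 regions (93.8%, 95% exact interval 93.1% to 94.5%). In 3046 regions (69.6%) the tallest RB knockdown peak lay wholly inside the tallest quiescent peak, in 145 (3.32%) the reverse held, and in 1183 (27.0%) neither contained the other. At least 50% reciprocal overlap was found in 3134 regions (71.7%), about as often as in regions of all 3 lists (74.2%). A narrow call inside a wide one was thus the common geometry, with the fragment length set for each list (125 against 200 bp) differing in the same direction.

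Summits, the positions of highest tag pile-up, lay close together although the rule required only 1 bp of overlap between peaks. Their distance had a median of 51 bp, with quartiles of 22 and 125 bp. It was at most 50 bp in 2160 regions (49.4%, 95% exact interval 47.9% to 50.9%) and at most 200 bp in 3592 (82.1%, 81.0% to 83.2%). The signed distance, quiescent minus RB knockdown position, had a median of -3 bp with quartiles of -55 and 48 bp. That median was small beside the spread, and a systematic offset was not tested. In regions of all 3 lists, whose peaks were wider, the same distance had a median of 62 bp and was at most 200 bp in 72.9% (70.3% to 75.4%).

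The summits coincided more closely where the calls were more significant. With a quiescent -10*log10 p of 50 to 60 the median distance was 60 bp, from 60 to 80 it was 58 bp, from 80 to 120 it was 50 bp, from 120 to 200 it was 41 bp and from 200 upward 35 bp. Sorted by the RB knockdown peak the same steps gave 81, 70, 51, 46 and 41 bp. Peaks did not become narrower along these steps: the quiescent median width went from 1122 to 1375 bp and, in the second sorting, the RB knockdown median width from 543 to 1062 bp. In the 386 regions (8.82%) with summits over 500 bp apart, the median width was 2073.5 bp, the median fold enrichment 4.80 (quiescent) and 6.93 (RB knockdown), and 26.4% held more than 1 RB knockdown peak. In regions with summits within 50 bp the fold enrichments were 6.80 and 8.94, and 4.12% held more than 1 RB knockdown peak. Regions with coincident summits thus had taller peaks in both lists than regions with distant ones.

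**Figure D3:**
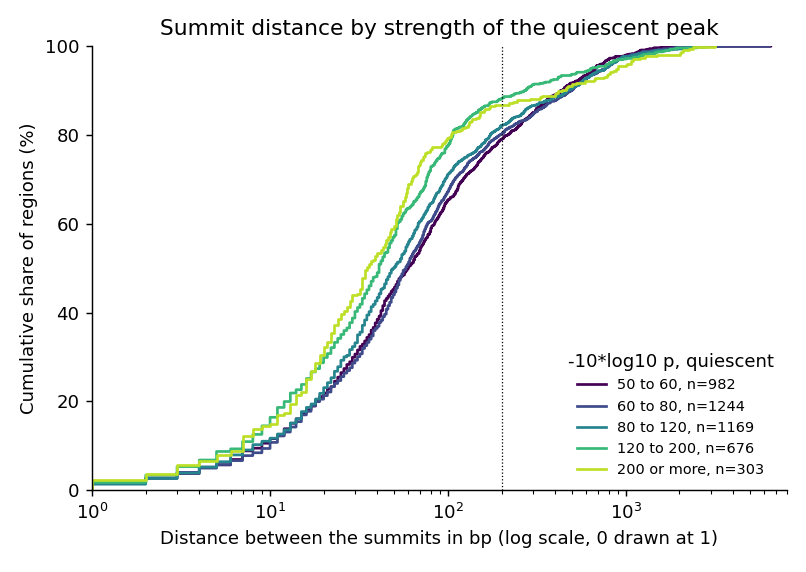
Cumulative share of shared regions (y, percent) by the distance between the quiescent and the RB knockdown summit (x, bp, log axis, with 0 drawn at 1), for 5 ranges of the quiescent peak's -10*log10 p; the dotted line marks 200 bp. The 2 upper ranges lie to the left of the others up to about 200 bp, with medians of 41 and 35 bp against 50 to 60 bp.

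In 255 regions (5.83%) a single quiescent peak overlapped at least 2 RB knockdown peaks, which could extend beyond it. Such quiescent peaks had a median width of 2106 bp against 1212.5 bp where there was 1 RB knockdown peak, 109 against 66 tags, and a lower fold enrichment, 5.36 against 6.315. Neighbouring RB knockdown peaks of these regions were 142 bp apart in the median, and the tallest had 8.38-fold enrichment against 8.20-fold in the simple regions. The opposite, at least 2 quiescent peaks over 1 RB knockdown peak, occurred in 4 regions (0.0914%), and 11 regions held at least 2 of each. The fragment length of 200 bp in the quiescent list and 125 bp in the RB knockdown list goes along with this asymmetry, and its part in it was not tested. The 186 regions wider than 3 kb (4.25%) included more than 1 RB knockdown peak in 51.6% of cases, and had 4.855-fold (quiescent) and 7.615-fold (RB knockdown) median enrichment with 176 and 154.5 tags. The 930 regions narrower than 1 kb had 6.93-fold and 8.84-fold enrichment with only 36 and 32 tags. Wide regions therefore had many tags at low enrichment, and narrow regions few tags at higher enrichment.

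The most significant regions were taken as the 8 whose ranks by -10*log10 p in both lists had the lowest sum. The first, chr18:46067723-46069053, had 375 tags and 36.3-fold enrichment in the quiescent list (rank 11 of 10242) and 299 tags and 36.3-fold in the RB knockdown list (rank 47 of 43648). Its summits were 7 bp apart, and the nearest growing peak was 293299 bp away. This was the region with the highest quiescent fold enrichment of all 4374, and the deposited enrichment was the same in both lists to the last decimal. The second, chr22:28921244-28923492, had 449 quiescent and 536 RB knockdown tags, with 10.3-fold and 13.55-fold enrichment, and a growing peak at a distance of 5712 bp. The third, chr2:70222064-70223990, had 178 tags at 16.7-fold and 201 tags at 28.5-fold, with a growing peak 4738 bp away. Both of these lay within 10 kb of a growing peak that did not touch them.

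A pair of the 8 regions were neighbours on chromosome 22. At chr22:34097410-34098593 the quiescent peak had 176 tags and 24.9-fold enrichment, with 169 tags and 27.1-fold for RB knockdown. At chr22:34102302-34103808, 3708 bp further on, the values were 216 tags and 19.9-fold, and 211 tags and 27.0-fold. Tags in both libraries were nearly equal at each of the pair, their summits were 24 and 25 bp apart, and the nearest growing peaks were 19855 and 21262 bp away. The other named regions were chr20:33792561-33794735 (293 and 393 tags, 16.4-fold and 27.1-fold, summits 16 bp apart), and chr1:85848986-85852193 (314 and 369 tags, 10.7-fold and 13.7-fold, summits 16 bp apart). All 8 had an FDR of 0% in both lists.

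The longest region was also among these 8. At chr15:37657607-37680339 a single quiescent peak of 22452 bp with 2789 tags overlapped an RB knockdown peak of 20341 bp with 4689 tags and a smaller one of 153 tags. Fold enrichment at the summits was 9.36 (quiescent) and 20.2 (RB knockdown), and the summits were 2394 bp apart. It held the highest tag counts of any shared region in both libraries, while the nearest growing peak was 487459 bp away. In this region the signal was broad and the summits lay far apart, while in the other 7 they were 7 to 104 bp apart.

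Ranked by the smaller of both fold enrichments, the 6 leading regions included chr18:46067723-46069053 and both regions of the pair on chromosome 22. The others were sharp and short. At chr11:103408631-103409722 the quiescent peak had 123 tags and 26.05-fold enrichment, with 88 tags and 28.45-fold for RB knockdown, with summits 12 bp apart. At chr6:127509508-127510514 the values were 102 tags and 21.6-fold, and 107 tags and 28.0-fold, with summits 19 bp apart. At chr2:242622204-242623422 they were 97 tags and 21.3-fold, and 72 tags and 29.1-fold, with summits 18 bp apart. All 6 were 1007 to 1507 bp wide, all had summits within 25 bp, and in none did a growing peak lie within 10 kb.

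Distance to the growing list was then read over all shared regions. The nearest growing peak was a median of 76147 bp away (quartiles 25684 and 185818 bp). It lay within 1 kb of 90 regions (2.06%, 95% exact interval 1.66% to 2.52%), within 10 kb of 534 (12.2%, 11.3% to 13.2%) and within 100 kb of 2533 (57.9%, 56.4% to 59.4%). Within 10 kb the share was 10.9% among RB-knockdown-only and 11.9% among quiescent-only regions, so the shared regions were about as often near a growing peak as these. Peak strength hardly varied with that distance. Median fold enrichment was 6.125 (quiescent) and 8.31 (RB knockdown) within 10 kb of a growing peak, 6.15 and 8.15 from there to 100 kb, and 6.41 and 8.23 beyond. The place on chromosomes did vary: 27.0% of the regions within 10 kb of a growing peak lay on chromosomes 16, 17, 19 and 22, 16.9% of those up to 100 kb away and 6.14% of those beyond. The sorting itself used growing peaks, and 16.3% of growing-only regions lay on these chromosomes, with 9.30% of the sequence spanned. Other classes were not split this way, so the differences are not read as particular to the shared regions.

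These 4 chromosomes, a set that an earlier look at the same lists had picked, held 594 of the shared regions (13.6%, 95% exact interval 12.6% to 14.6%), with 9.30% of the sequence spanned. The whole quiescent list had 14.1% of its peaks there and the RB knockdown list 12.9%. Among regions of all 3 lists the share was 25.2% (22.7% to 27.8%), among those of growing and RB knockdown 26.7% (23.9% to 29.6%), among those of growing and quiescent 21.8% (16.3% to 28.3%) and among growing-only regions 16.3% (15.4% to 17.1%). Quiescent-only regions had 11.1% (10.2% to 12.1%). The shared regions thus had about the share of their source lists, and the 4 classes with a growing peak had larger shares, by the least in growing-only regions. The 4 chromosomes were picked from these same lists and the classes were defined by the same calls. The exact intervals cover counting error only, so they are no test between classes.

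Per Mb spanned by peaks, chromosome 17 had the most shared regions, 188 or 2.39 per Mb, followed by chromosome 19 with 149 or 2.34 per Mb. The fewest were on chromosome X, 109 or 0.707 per Mb, followed by chromosome 13 with 119 or 1.04 per Mb. All chromosomes together had 1.45 per Mb. Whole-list densities had the same extremes, 6.17 quiescent and 25.7 RB knockdown peaks per Mb on chromosome 17 and 2.18 and 5.73 on chromosome X. As a share of the quiescent peaks of a chromosome, peaks in shared regions ranged from 32.4% on chromosome X and 35.0% on chromosome 21 to 49.1% on chromosome 18 and 48.3% on chromosome 5. Median quiescent fold enrichment in the regions ranged only from 5.86 (chromosome 21) to 6.72 (chromosome X).

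**Figure D4:**
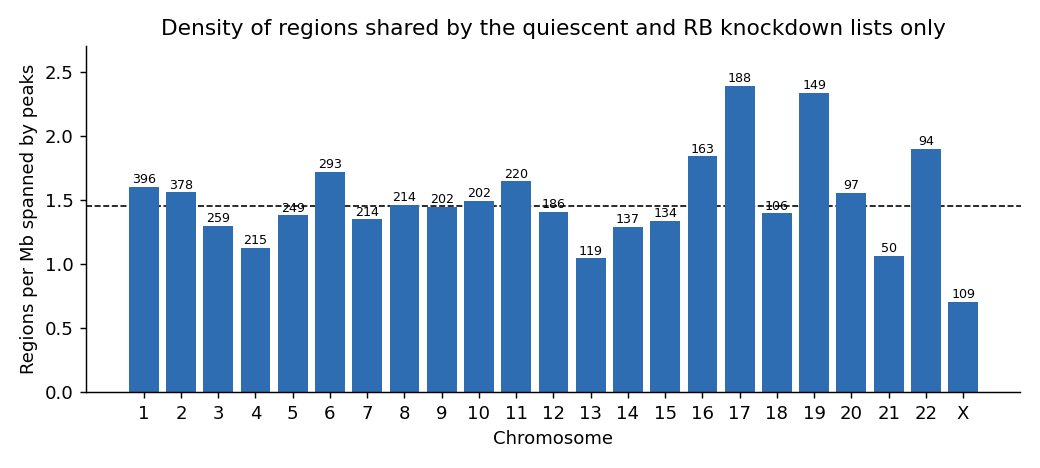
Shared regions per Mb of sequence spanned by peaks (y) on each chromosome (x), with the number of regions above each bar; the dashed line is the density over all chromosomes, 1.45 per Mb. Chromosomes 17 and 19 stand highest, at 2.39 and 2.34, and chromosome X lowest, at 0.707.

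The spacing of the shared regions was uneven. The nearest other shared region was a median of 111078 bp away, within 10 kb for 448 regions (10.2%) and within 100 kb for 2086 (47.7%, 95% exact interval 46.2% to 49.2%). Quiescent-only regions, nearly equal in number at 4409, had 42.6% within 100 kb of another of their class. The most crowded window of 1 Mb was chr6:11141656-12141655, with 15 shared regions against 1.45 per Mb over all chromosomes.

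In that window lay 21 quiescent, 38 RB knockdown and 2 growing peaks, and besides the 15 shared regions there were 5 quiescent-only, 21 RB-knockdown-only and 1 region of all 3 lists. Chromosome 6 as a whole had 3.68 quiescent and 15.2 RB knockdown peaks per Mb, so both source lists were also crowded in this window. The 15 shared regions were 874 to 2727 bp wide. Their tallest peaks had 36 to 196 quiescent tags (median 73) and 30 to 156 RB knockdown tags (median 57). Fold enrichment was 3.63 to 14.4 in the quiescent list and 4.44 to 9.69 in the RB knockdown list. The tallest on the quiescent side, chr6:11384699-11386284, had 148 tags and 14.4-fold enrichment there and 53 tags and 4.84-fold in the RB knockdown list. Its neighbour chr6:11379050-11381239 had a quiescent peak of 196 tags and 11.65-fold enrichment. The tallest RB knockdown peak there had 110 tags and 8.65-fold, and another had 35 tags. The region chr6:11304267-11306228 had 168 and 156 tags, and 6.35-fold and 8.74-fold. These 3 were the only regions of the window with a quiescent FDR of at most 5%, whereas all 15 met it in the RB knockdown list. No growing peak lay within 16764 bp of any of the 15.

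**Figure D5:**
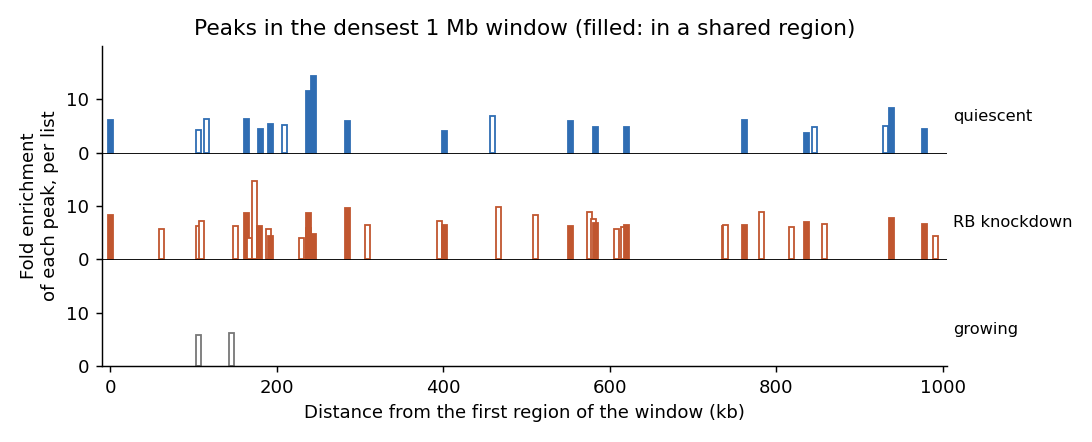
Fold enrichment (y, separate linear scale for each list, marked at 0 and 10) of every peak in the 1 Mb window with the most shared regions, by distance from the first region (x, kb); bars are drawn 6 kb wide for visibility, and filled bars belong to one of the 15 shared regions. Filled quiescent and RB knockdown bars pair up along the window, and the growing list has only 2 peaks, both unfilled.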

How the data were processed

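Per the submitters' processing notes, reads were aligned with Bowtie to hg18 (its version is not stated). MACS 1.4.1, per the file headers, called the authors' peaks on each library alone, against 1 control library, at a p cutoff of 1e-05 with at most 2 tags per position. Deposited values per peak were the tag count, the linear fold enrichment (a ratio to local background), the FDR in percent, and 10 times the −log10 p, a score used as given. Width and summit offset were deposited in bp. Scores described or ranked peaks within a list.

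Peaks outside chromosomes 1 to 22 and X (15 growing, 17 quiescent, 5 RB knockdown) were left out. Ranks were taken in the full lists. Merging was checked on simulated intervals. The computation used Python 3.11.15, pandas 2.3.3 and SciPy 1.17.1. Intervals on shares are exact (Clopper-Pearson, 95%) and cover counting error only, since neighbouring peaks are not independent. No test between states was made.

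Named regions were the 8 with the lowest sum of ranks by -10*log10 p in both lists, the 6 with the highest smaller fold enrichment, the longest, those nearest the edges of the rule (3 of each kind), the most crowded 1 Mb window, and the chromosomes of highest and lowest density. In the window, 3 regions were named after their values were seen, as were chromosomes 5, 13, 18, 19 and 21. Members and rules were chosen with earlier results of these data known. Only tables of GRCh38 positions were used here, not of hg18, so no gene or sequence was assigned to a position. For 9 results, 6 alternatives were tried.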

Additional observations from a re-analysis of the deposited data

How the results depend on the processing

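With 9 results and 6 alternatives, 53 values were recomputed. The share at an FDR of at most 5% within lists cut at that FDR was left out as circular. Some values that were kept are also partly fixed by their setting. These include the summit distance where summits had to lie within 200 bp. They also include the share within 10 kb of a growing peak where the settings changed which growing peaks removed a region. A median or share counts as moved when it left its own 95% interval, and a count when it changed by more than 1.5 times. Requiring a -10*log10 p of at least 100 in the quiescent and RB knockdown lists left 1039 regions with a median width of 1449 bp, fold enrichments of 8.21 and 10.6, a summit distance of 39 bp, 64.8% at an FDR no higher than 5% on both sides and 21.8% with a neighbour within 100 kb. An FDR of at most 5% left 887 regions with 1419 bp, 9.32-fold and 9.73-fold, 38 bp and 16.1%. These cuts select the taller peaks and leave fewer regions by construction. Reciprocal overlap of at least 50% gave a width of 1233 bp, an RB knockdown enrichment of 8.36, a distance of 47 bp and 37.2% with a neighbour. Summits within 200 bp in any overlapping pair gave 1252 bp, 6.51-fold and 8.51-fold, 40 bp, 21.8% at that FDR and 41.4%. When growing peaks within 1 kb also removed a region, 10.4% lay within 10 kb of a growing peak. When a growing peak removed a region only from a -10*log10 p of 100 upward, there were 5088 regions, and 1333 bp, 8.325-fold (RB knockdown), 23.4% at that FDR, 52.8% with a neighbour, 14.9% on chromosomes 16, 17, 19 and 22, and 2.65% within 10 kb of one of those growing peaks were the values that moved. The share on those chromosomes otherwise stayed between 13.0% and 14.1%. The growing list had a median FDR of 72.6% at 22628990 filtered tags, against 1.21% in the RB knockdown list at 23379790 tags, and the cause was not tested. Absence from the growing list is a statement about its threshold.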

Other observations

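After chr6:11141656-12141655, the next most crowded windows of 1 Mb that did not overlap it held 13 shared regions each, and were picked after their values were seen. The window of chromosome 7 from 99682748 had 18 growing peaks, and 7 regions of all 3 lists beside the shared ones. Its shared regions had 3.19-fold to 11.2-fold enrichment in the quiescent list and 5.68-fold to 26.5-fold in the RB knockdown list. The window of chromosome 13 from 113195442 had 9 growing peaks and 3 regions of all 3 lists, and 8 of its 13 shared regions had summits within 50 bp. The window on chromosome 6 had 2 growing peaks, so the number of growing peaks differed between these crowded windows.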
